A study of Arabidopsis thaliana with 12 samples.

Results

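In Arabidopsis seedlings, 178 of 33557 genes lost transcript when *BLISTER* (*BLI*) was mutated, were higher again when *IRE1A* was mutated as well, and stayed low when *IRE1B* was mutated instead. They were chosen by these values themselves. A gene entered the set when its mean FPKM (sequenced fragments scaled to transcript length and library size) was at least 2 in WT, at most 0.5 of WT in *bli*, at least 1.75 of *bli* in *bli ire1a* and at most 1.25 of *bli* in *bli ire1b*, with every *bli* library below every WT and every *bli ire1a* library. The differences of *bli*, *bli ire1a* and *bli ire1b* that the rule fixes are therefore given as a description, without a test. The bounds were met in turn by 17935 genes (WT level), 1102 (loss in *bli*), 493 (level in *bli ire1a*) and 261 (level in *bli ire1b*), and the condition on single libraries left 178. Of these, 175 code for proteins and 3 are long non-coding RNAs.

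RNA-Seq was done on whole seedlings of 4 genotypes, with 3 libraries each, all in the Columbia strain and without a stress treatment named in the labels: *bli-1 ire1a* (written *bli ire1a*), *bli-1 ire1b* (*bli ire1b*), *bli-1* (*bli*) and wild type (WT). The mutants are homozygous for T-DNA insertions, with a single allele of each gene. The labels give an age of 12 days, while the study's methods give an older age for the harvest. The *ire1a* and *ire1b* mutations were sequenced only together with *bli-1*, so their effects in plants with intact *BLI* were not analysed here.

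BLI is a plant-specific protein that was found as a partner of the Polycomb-group methyltransferase CURLY LEAF. IRE1 is the conserved sensor of the unfolded protein response (UPR), the programme that a cell starts when misfolded proteins collect in the endoplasmic reticulum (ER). It is an ER membrane protein with a kinase and an RNase domain. Its RNase splices the mRNA of the transcription factor bZIP60 in plants, and it can also degrade mRNAs that are translated at the ER, a process known as RIDD. Arabidopsis has the full-length copies IRE1A and IRE1B.

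The mutated genes were read first. *BLI* averaged 10.6, 10.8 and 10.9 FPKM in *bli ire1a*, *bli ire1b* and *bli*, against 17.3 FPKM in WT, and transcript was thus still detected in all mutants. *IRE1A* averaged 5.23 FPKM in *bli ire1a*, against 22.2 in *bli ire1b*, 23.3 in *bli* and 15.5 in WT, and *IRE1B* averaged 4.91 FPKM in *bli ire1b*, against 10.2 in *bli ire1a*, 11 in *bli* and 9.80 in WT. Each *IRE1* gene was lowest in its own mutant. The canonical UPR gene *BiP3*, an ER chaperone, averaged 4.67, 53.6 and 72.8 FPKM in *bli ire1a*, *bli ire1b* and *bli*, against 0.664 FPKM in WT. Of 14 canonical UPR genes, 8 were higher and 0 lower in *bli* than in WT by the fold and p calls given below. That 0 of the 14 belonged to the set thus follows largely from the rule, which needs a loss in *bli*. Read counts were not used and the absolute depth is unknown. From the value of a single fragment in weak genes, the depths of the libraries ranged from 0.933 to 1.8 of that of WT replicate 1.

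Seen library by library, the middle of the set lay low in *bli ire1b* as in *bli*, as the rule requires, and in between *bli* and WT in *bli ire1a*. With each gene divided by its WT mean, the median over the set was 0.655, 0.718 and 0.677 in the *bli ire1a* libraries, 0.277, 0.301 and 0.315 in the *bli ire1b* libraries, 0.359, 0.281 and 0.316 in the *bli* libraries, and 1.07, 0.932 and 0.994 in the WT libraries. The *bli ire1b* and *bli* medians overlapped, and the *bli ire1a* medians lay above both and below all of WT. In these bulk samples, fewer cells of a type and less RNA per cell cannot be told apart.

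**Figure D1:**
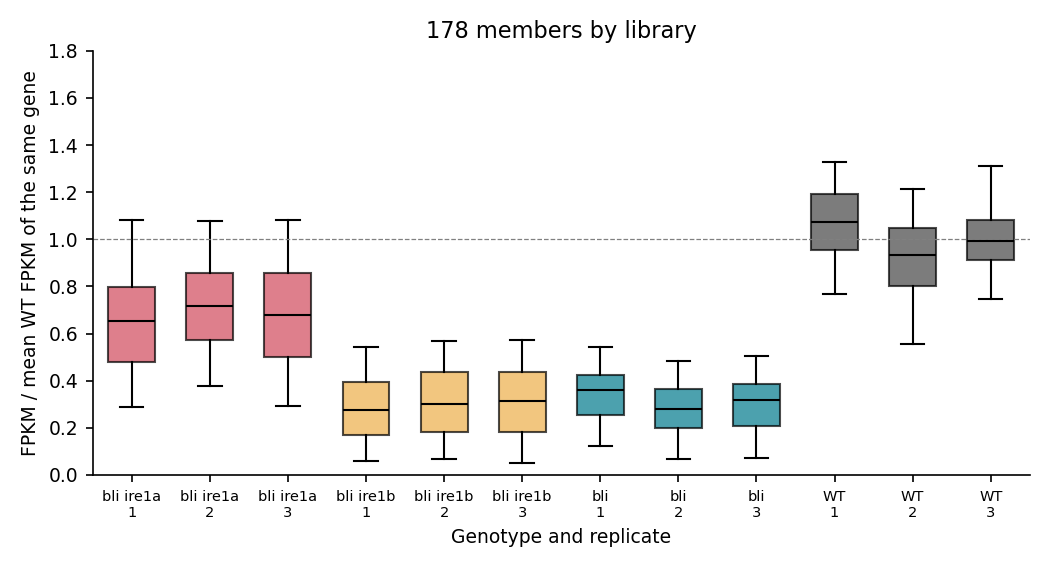
Level of the 178 genes in each of the 12 libraries, as FPKM divided by the WT mean of the gene. Boxes span the quartiles, lines are medians and whiskers reach the percentiles 5 and 95. The medians of the *bli ire1a* libraries lie between 0.655 and 0.718, above the *bli ire1b* and *bli* libraries and below the WT libraries.

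The boxes of FPKM relative to WT show that this order held for the middle of the set in every library. WT replicate 2 stood apart for a few genes. It was the lowest WT library for 87 genes, against 40 for replicate 1 and 51 for replicate 3, and it was under 0.5 of both other WT libraries for 8, *ADS1*, AT1G06100, AT1G49450, *GolS2*, AT1G76610, *COR15A*, *THI2.2* and *RAB18*. Where leaving it out ends a call or an adjusted p named here, or moves a fold change by over 1.5 times, the value without it is given.

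The set spans a wide range of expression. In WT, 15 genes averaged at least 100 FPKM, 81 averaged 10 to 100 FPKM and 82 were under 10 FPKM, and 30 genes averaged under 1 FPKM in *bli*. The *bli* to WT ratio ran from 0.0146 to 0.496 with a median of 0.326, and the median *bli ire1a* to *bli* ratio was 2.13 (1.76 to 11.4). The *bli ire1b* to *bli* ratio had a median of 0.994 and ran from 0.317 to 1.25, the bound of the rule. These 3 ratios are what the rule selected on. Among all 20645 genes with a mean of at least 0.5 FPKM, 5.71% were down-regulated in *bli* against WT at a fold change of at most 0.5 and an unadjusted p of at most 0.05 in a limma model of all libraries, 2.02% were up-regulated in *bli ire1a* against *bli* at a fold change of at least 2, and 0.538% were up-regulated in *bli ire1b* against *bli*. Of the 178, 175, 112 and 0 passed these calls, and nothing is read from these counts because the rule used the same contrasts.

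The members nearest the bounds show how sharp the set is. AT5G59680 and AT1G62030 had a WT mean of 2.01 FPKM just inside, and *IAA5* (1.98 FPKM) and AT4G14650 (1.94 FPKM) were just outside. For the loss in *bli*, AT4G12450 (0.496 of WT) was inside and *NCRK* (0.501) outside. For the level in *bli ire1a*, *SULTR3;1* (1.756 of *bli*) was inside and AT1G05540 (1.749) outside, and for that in *bli ire1b*, AT5G25840 (1.249) was inside and *PEL3* (1.253) outside. There were 46, 37, 157 and 169 genes that failed the bound on WT level, loss in *bli*, level in *bli ire1a* and level in *bli ire1b* alone. These bounds are limits of the rule and not gaps in the data.

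The comparison that the rule left without a bound is *bli ire1a* against WT: how much of the WT level these genes had in the double mutant. The median *bli ire1a* to WT ratio was 0.710, with quartiles of 0.547 and 0.829 and a range of 0.121 to 1.37. In *bli ire1a*, 31 of the 178 genes (17.4%) were down-regulated against WT and 0 were up-regulated, where 2.18% and 1.79% of all tested genes were. At a limma adjusted p of at most 0.05 over all genes, 27 of the 31 passed. By the same fold and adjusted p, 317 of all 20645 tested genes were lower and 285 higher. Without the fold cutoff, 59 members were lower and 0 higher in *bli ire1a* at that adjusted p. No member was higher in *bli ire1a* at an unadjusted p of at most 0.05 in limma either (0 genes). For these counts at any fold, the shares of all tested genes are not given here, so nothing is read from them. Both groups entered the rule through their distance to *bli*, so chance deviations in either group helped to choose the genes. The rule also asked for a larger distance to *bli* from WT than from *bli ire1a*. A surplus of members below WT can therefore come from the rule itself. The shares of all tested genes, here and for single libraries below, are thus no fitting background for the members. The same choice affects the p-values of single members in this comparison.

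By single libraries, 95 genes (53.4%) had every *bli ire1a* library below every WT library, against 17.2% of all tested genes, and 1 gene (0.562%) had every *bli ire1a* library above WT, against 15.7%. The ranges of the other 82 genes overlapped. The 95% intervals of the difference lay above a halving for 81 genes, below 0 for 88 genes, and held both 0 and a halving for 29 genes. For these 29 the data could not tell a level at WT from one at a halving. The shares of all tested genes with such intervals are not given here, so nothing is read from these counts about the set. Of the FPKM lost in *bli*, *bli ire1a* had regained a median of 55.2% (5.85% to 161%), with under 25% regained for 13 genes, 25% to 50% for 59, 50% to 75% for 68 and 75% or more for 38.

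**Figure D2:**
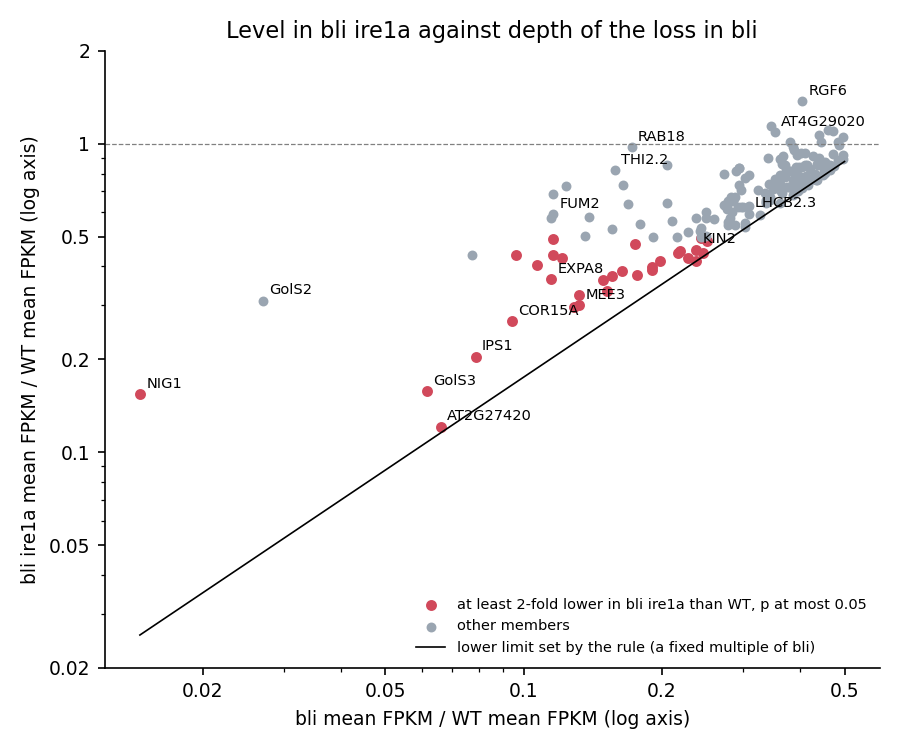
Each of the 178 genes by its mean FPKM in *bli* (x) and in *bli ire1a* (y), both divided by the WT mean, on log axes, with the genes called lower in *bli ire1a* than in WT in red and a line for the lower limit of the rule. The genes at 0.2 of WT or less in *bli* spread from 0.121 to 0.972 of WT in *bli ire1a*, and those above 0.35 lie at 0.642 of WT or above.

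Read against the depth of the loss, the genes at 0.2 of WT or less in *bli* (38 genes) had a median of 0.421 of WT in *bli ire1a* (0.121 to 0.972), and 23 of them were down-regulated against WT. Those between 0.2 and 0.35 (63 genes) had a median of 0.625 (0.416 to 1.14) and 8 were down-regulated, and those above 0.35 (77 genes) had a median of 0.830 (0.642 to 1.37) with 0 down-regulated by the same limma call. The rule itself sets a lower limit in *bli ire1a* of 1.75 times the *bli* level, which is higher for genes that lost less, so this order is partly built in.

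The most strongly expressed gene was *LHCB2.3* (AT3G27690), a light-harvesting chlorophyll-binding protein of photosystem II. It had 1357, 1682 and 1345 FPKM in *bli ire1a*, 507, 553 and 633 FPKM in *bli ire1b*, 869, 691 and 729 FPKM in *bli*, and 2644, 2266 and 2484 FPKM in WT. The *bli ire1a* libraries lay apart from all others, and *bli ire1b* was below every *bli* library. In *bli ire1a* it was lower than in WT by a log2 fold change of −0.76 ± 0.117 (SE, limma adjusted p = 0.00219). The 250 bases before its annotated start are printed here because they hold the letters of the abscisic acid (ABA) response element (ABRE, searched as ACGTGG and ACGTGT on both strands) 3 times, which the capitals mark. The sequence is from RefSeq, build TAIR10.1, written 5′ to 3′ on the gene's strand.
*LHCB2.3* chr3:10255656-10255905 (plus strand): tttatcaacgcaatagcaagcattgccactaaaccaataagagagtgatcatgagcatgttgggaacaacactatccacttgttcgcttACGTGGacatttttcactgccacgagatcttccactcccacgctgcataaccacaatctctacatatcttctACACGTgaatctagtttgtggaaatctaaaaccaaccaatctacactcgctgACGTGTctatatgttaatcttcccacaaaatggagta
It overlaps AT3G27700, on the other strand and at a mean of 7.36 FPKM, by 595 bases. Its relatives *LHCB2.1* and *LHCB2.2* had 3460 and 3450 FPKM in *bli ire1a*, 2130 and 2050 in *bli ire1b*, 2810 and 2320 in *bli*, and 4840 and 4430 in WT, and did not belong to the set.

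**Figure D3:**
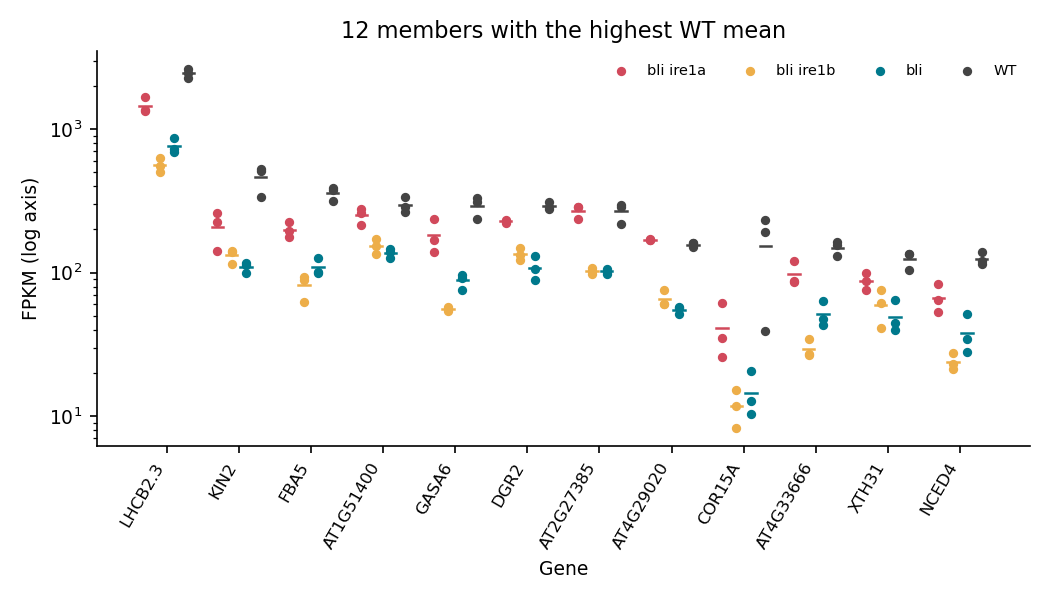
FPKM per library of the 12 members with the highest WT mean, on a log axis, where points are libraries and dashes are group means. Most genes lie lowest in *bli* and *bli ire1b*, and *LHCB2.3* has 1345 to 1682 FPKM in *bli ire1a* and 2266 to 2644 FPKM in WT.

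The plot of the 12 strongest members also shows the genes that reached WT level. AT4G29020, annotated as a glycine-rich protein, had 170, 173 and 168 FPKM in *bli ire1a*, 60.5, 75.6 and 60.2 FPKM in *bli ire1b*, 57.1, 57.2 and 51.2 FPKM in *bli*, and 160, 161 and 150 FPKM in WT. It was the single member with every *bli ire1a* library above every WT library, and its difference from WT was small, with a log2 fold change of 0.12 (limma adjusted p = 0.386). AT2G27385, annotated as a pollen Ole e 1 allergen and extensin family protein, had 237, 288 and 285 FPKM in *bli ire1a*, 98.5, 108 and 103 FPKM in *bli ire1b*, 102, 106 and 98.6 FPKM in *bli*, and 296, 220 and 287 FPKM in WT. Its *bli ire1a* and WT libraries overlapped.

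Other strong members had less than the WT level in *bli ire1a*. *GASA6*, of a gibberellin-regulated family of small secreted peptides, had 140, 239 and 169 FPKM in *bli ire1a*, 53.7, 58.1 and 56.2 FPKM in *bli ire1b*, 96.9, 76.0 and 91.6 FPKM in *bli*, and 330, 236 and 313 FPKM in WT, with 1 *bli ire1a* library inside the WT range. *FBA5*, annotated as a fructose-bisphosphate aldolase superfamily gene, had 196, 224 and 179 FPKM in *bli ire1a*, 62.3, 93.8 and 88.9 FPKM in *bli ire1b*, 126, 100 and 101 FPKM in *bli*, and 386, 315 and 377 FPKM in WT, without overlap between *bli ire1a* and either *bli* or WT. *NCED4*, a carotenoid cleavage dioxygenase, had 64.3, 83.1 and 52.9 FPKM in *bli ire1a*, 21.2, 23.2 and 27.5 FPKM in *bli ire1b*, 51.2, 27.9 and 34.5 FPKM in *bli*, and 139, 115 and 120 FPKM in WT. The lowest *bli ire1a* library of *NCED4* lay only just above the highest *bli* library. AT1G51400, annotated as a 5 kD protein of photosystem II, averaged 0.850 of WT in *bli ire1a* and 0.464 of WT in *bli*, but 390 of its bases overlap AT1G51402 on the other strand, whose means were 323, 196, 213 and 430 FPKM in *bli ire1a*, *bli ire1b*, *bli* and WT. Without strand, reads of that pair cannot be told apart. *DGR2*, AT4G33666 and *XTH31*, also among the 12 strongest members, averaged 0.781, 0.657 and 0.702 of WT in *bli ire1a*.

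Genes that respond to cold and to ABA gave 5 members, of which *GolS2*, *GolS3*, *COR15A* and *RAB18* had less than 0.2 of WT in *bli* and *KIN2* had 0.238. *KIN2* and *COR15A* are cold-induced and the COR15A protein protects chloroplast membranes, *RAB18* encodes a dehydrin, and the galactinol synthases GolS2 and GolS3 make the precursor of raffinose sugars. Their promoters are shown because their letters can be compared with known elements of cold and ABA response: the capitals mark the ABRE letters and the C-repeat/DRE core (CRT, searched as CCGAC), on either strand. The sequences are the 250 bases before the annotated start, 5′ to 3′ on the gene's strand, from RefSeq, build TAIR10.1.
*KIN2* chr5:5211469-5211718 (plus strand): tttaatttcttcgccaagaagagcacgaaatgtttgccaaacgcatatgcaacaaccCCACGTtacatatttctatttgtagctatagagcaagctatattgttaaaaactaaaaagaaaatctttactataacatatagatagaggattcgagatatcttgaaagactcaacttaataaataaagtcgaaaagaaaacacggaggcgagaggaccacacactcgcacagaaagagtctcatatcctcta
*COR15A* chr2:17712331-17712580 (minus strand): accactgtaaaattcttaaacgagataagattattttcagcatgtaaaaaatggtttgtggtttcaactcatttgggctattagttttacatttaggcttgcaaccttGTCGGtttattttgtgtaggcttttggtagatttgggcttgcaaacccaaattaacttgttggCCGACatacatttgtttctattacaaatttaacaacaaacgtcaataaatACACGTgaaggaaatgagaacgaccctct
*RAB18* chr5:26519448-26519697 (minus strand): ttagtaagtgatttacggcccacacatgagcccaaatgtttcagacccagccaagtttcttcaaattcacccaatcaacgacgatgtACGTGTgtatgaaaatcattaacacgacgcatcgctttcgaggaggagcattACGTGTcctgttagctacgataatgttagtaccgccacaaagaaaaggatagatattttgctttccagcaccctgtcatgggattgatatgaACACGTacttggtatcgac
*GolS3* chr1:3019389-3019638 (plus strand): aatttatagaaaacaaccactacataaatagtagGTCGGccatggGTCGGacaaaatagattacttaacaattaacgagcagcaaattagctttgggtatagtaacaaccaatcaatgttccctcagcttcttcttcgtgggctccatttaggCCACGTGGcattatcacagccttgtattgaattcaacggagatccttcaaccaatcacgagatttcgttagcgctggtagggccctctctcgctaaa
*GolS2* chr1:21207287-21207536 (plus strand): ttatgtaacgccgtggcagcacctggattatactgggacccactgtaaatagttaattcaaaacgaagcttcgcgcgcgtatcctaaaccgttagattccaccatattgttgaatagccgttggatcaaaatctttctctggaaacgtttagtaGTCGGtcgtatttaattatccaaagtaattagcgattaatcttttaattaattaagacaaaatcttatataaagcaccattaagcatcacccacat
*KIN2* had 1 ABRE match, *COR15A* 1 ABRE and 2 CRT matches, *RAB18* 3 ABRE matches, *GolS3* 2 overlapping ABRE matches, which also hold a G-box (CACGTG), and 2 CRT matches, and *GolS2* 1 CRT match and no ABRE letters. In windows from 250 bases before to 50 bases after the start, ABRE letters were in 25.3% of members, 20.3% of all expressed genes and 29.0% of the 186 protein-coding genes that were low in *bli* and stayed low in *bli ire1a*, and CRT letters in 13.5%, 16.1% and 13.4%. The ABRE share was thus higher in the genes that stayed low than in the members. These matches describe the letters and not bound sites.

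*KIN2* had 141, 263 and 224 FPKM in *bli ire1a*, 115, 142 and 139 FPKM in *bli ire1b*, 116, 98.8 and 114 FPKM in *bli*, and 513, 338 and 532 FPKM in WT. The *bli ire1a* libraries were above every *bli* library and below every WT library, at a log2 fold change of −1.16 ± 0.221 against WT (SE, limma adjusted p = 0.00596). *KIN1*, whose transcript is 92.079% identical over 505 bases, had means of 39.7, 21.8, 15.9 and 106 FPKM in *bli ire1a*, *bli ire1b*, *bli* and WT, and reads may be shared between the pair.

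*GolS3* had 2.08, 2.64 and 1.58 FPKM in *bli ire1a*, 0.337, 0.546 and 0.585 FPKM in *bli ire1b*, 1.44, 0.410 and 0.604 FPKM in *bli*, and 15.8, 10.4 and 13.6 FPKM in WT. It kept 0.158 of the WT level in *bli ire1a*, so that a gene counted as recovering by the rule was still far from WT (log2 fold change −2.61 ± 0.375, SE, limma adjusted p = 0.00152). *COR15A* had 26.0, 61.7 and 35.2 FPKM in *bli ire1a*, 11.7, 15.2 and 8.31 FPKM in *bli ire1b*, 20.7, 10.3 and 12.8 FPKM in *bli*, and 192, 39.1 and 232 FPKM in WT. WT replicate 2 lay inside the range of *bli ire1a*, and the log2 fold change against WT was −1.65 (limma adjusted p = 0.0826) with it and −2.45 (limma adjusted p = 0.00374) without it.

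*GolS2* showed the same WT library apart, at 2.76, 4.32 and 3.54 FPKM in *bli ire1a*, 0.385, 0.499 and 0.153 FPKM in *bli ire1b*, 0.606, 0.322 and 0 FPKM in *bli*, and 14.1, 0.914 and 19.2 FPKM in WT. Its log2 fold change of −0.87 against WT (limma adjusted p = 0.613) became −2.21 without that library (limma adjusted p = 0.0631). *RAB18* had 14.4, 18.8 and 21.4 FPKM in *bli ire1a*, 2.51, 1.37 and 1.61 FPKM in *bli ire1b*, 3.10, 2.68 and 3.87 FPKM in *bli*, and 23.5, 10.3 and 22.4 FPKM in WT. It averaged 0.972 of WT in *bli ire1a*, and 0.793 without WT replicate 2. *RAB18* thus had WT-like values while *GolS3* had a small part of its WT level, within the same list. Of the 68 other tested genes of the cold and ABA list, 14 were down-regulated and 5 up-regulated in *bli* against WT. Against *bli*, by the same fold and p, 3 were called higher and 3 called lower in *bli ire1a*, and 1 was called higher and 3 called lower in *bli ire1b*. Among all tested genes, 5.71% were down-regulated and 4.4% up-regulated in *bli* against WT, 2.02% called higher and 2.03% called lower in *bli ire1a* against *bli*, and 0.538% and 1.81% in *bli ire1b* against *bli*. The list counts that follow stand against these shares. The median log2 difference over all tested genes of that list was −0.23 in *bli* against WT and 0.21 in *bli ire1a* against *bli* (−0.01 and 0.01 over all genes).

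Auxin genes were the other signalling group with several members. *SHY2* (IAA3), *AXR3* (IAA17) and *IAA14* belong to the Aux/IAA family, repressors that auxin removes by degradation. *AXR3* had 32.4, 34.4 and 36.9 FPKM in *bli ire1a*, 14.8, 14.3 and 15.0 FPKM in *bli ire1b*, 15.5, 13.6 and 17.3 FPKM in *bli*, and 40.6, 44.7 and 39.5 FPKM in WT. *SHY2* had 25.3, 19.7 and 19 FPKM in *bli ire1a*, 9.49, 10.6 and 8.93 FPKM in *bli ire1b*, 9.05, 6.87 and 10.07 FPKM in *bli*, and 23.4, 22.5 and 25.9 FPKM in WT. The genes are neighbours on chromosome 1, and all 3 Aux/IAA members had 0.830 to 0.931 of WT in *bli ire1a* without passing the call. *SHY2* overlaps AT1G04230 by 640 bases.

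The response factors *ARF11* and *ARF18*, the auxin carrier *PIN5* and *IAMT1*, an enzyme that methylates auxin, were members too. *PIN5* had 0.389 of WT in *bli ire1a* (log2 fold change −1.28 ± 0.38, SE, limma adjusted p = 0.044) and was down-regulated against WT, while its limma adjusted p without WT replicate 2 was 0.116, and *ARF18* had 0.889. Of the 20 other tested Aux/IAA genes, 4 were down-regulated in *bli*, 2 up-regulated in *bli ire1a* and 1 in *bli ire1b* against *bli*, with 0 calls in the opposite directions. Of the 95 other auxin genes outside the set, 32 were down-regulated and 2 up-regulated in *bli*, 19 were called higher and 2 called lower in *bli ire1a* against *bli*, and 9 were called higher and 0 called lower in *bli ire1b* against *bli*. Auxin genes outside the set were thus called upwards in both double mutants. Over all its tested genes, the Aux/IAA list had a median log2 difference of −0.71 in *bli* against WT and 0.40 in *bli ire1a* against *bli*, and the list of other auxin genes −0.65 and 0.49, where all 20645 genes had medians of −0.01 and 0.01.

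The expansins gave the most members of any list (6), namely *EXPA3* (listed as *EXP3*), *EXPA8*, *EXPA11*, *EXPB1*, *EXPB3* and *EXLB1*. Expansins loosen the wall without cutting its polymers and act in cell growth. *EXPA8* had 26.2, 41.7 and 31.5 FPKM in *bli ire1a*, 5.53, 5.31 and 4.76 FPKM in *bli ire1b*, 14, 8.35 and 8.97 FPKM in *bli*, and 108, 66.7 and 97.8 FPKM in WT. It formed 4 separate levels, with *bli ire1b* below every *bli* library, and it was down-regulated in *bli ire1a* against WT (log2 fold change −1.45 ± 0.229, SE, limma adjusted p = 0.00243). *EXPB3* had 44.1, 50.5 and 55.4 FPKM in *bli ire1a*, 23.7, 31.9 and 25.8 FPKM in *bli ire1b*, 26.4, 22.5 and 27.7 FPKM in *bli*, and 102, 87.2 and 85.7 FPKM in WT. *EXPA11* had 0.443 of WT in *bli ire1a* (limma adjusted p = 0.000573), and *EXLB1* had 0.831.

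Of the 18 other tested expansins, 6 were down-regulated and 2 up-regulated in *bli*, 1 was up-regulated in *bli ire1a* and 1 in *bli ire1b* against *bli*, and the list had a median log2 difference of −1.01 in *bli* against WT and 0.23 in *bli ire1a* against *bli*. XTH enzymes cut and rejoin xyloglucan in the wall. *XTH31* was the only one of them in the set, and among the 28 other tested *XTH* genes 9 had higher and 4 had lower levels in *bli* by the same calls. The pectate lyase-like AT5G48900 had 0.641 of WT in *bli ire1a*, and the class III peroxidases AT3G17070 and AT5G64110 had 0.707 and 0.853. Of the 60 other class III peroxidases tested, 14 were down-regulated and 7 up-regulated in *bli*. Against *bli*, 1 was called higher and 3 called lower in *bli ire1a*, and 1 was called higher and 1 called lower in *bli ire1b*.

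**Figure D4:**
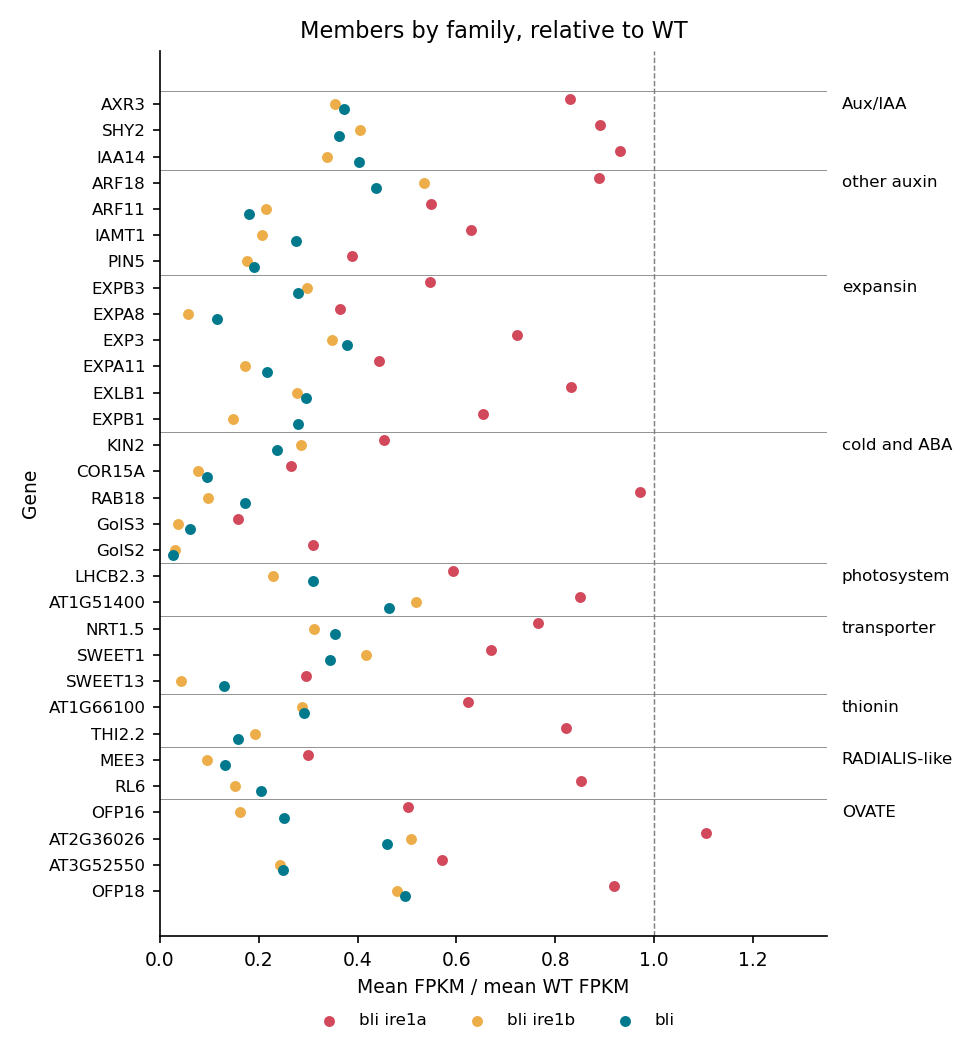
Mean FPKM divided by the WT mean of the members of gene families, for *bli ire1a*, *bli ire1b* and *bli*. Each point is a gene, and WT is the dashed line at 1. *GolS3* lies at 0.158 of WT in *bli ire1a*, while the Aux/IAA genes lie between 0.830 and 0.931.

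The plot of family members against WT shows that the levels in *bli ire1a* differ within a family as well as between families. *MEE3* and *RL6* belong to the RADIALIS-like family of small MYB-related proteins. *MEE3* had 11.7, 12.9 and 14.1 FPKM in *bli ire1a*, 3.13, 4.34 and 4.65 FPKM in *bli ire1b*, 5.29, 5.79 and 5.85 FPKM in *bli*, and 31.4, 55.2 and 41.9 FPKM in WT, in levels without overlap (log2 fold change against WT −1.69 ± 0.192, SE, limma adjusted p = 0.000445). *RL6*, which was listed at 0 in a *bli* library, had 5.27, 4 and 2.34 FPKM in *bli ire1a*, 0.422, 0.390 and 1.25 FPKM in *bli ire1b*, 1.92, 0.877 and 0 FPKM in *bli*, and 4.11, 4.64 and 4.89 FPKM in WT. Of the 5 other tested family genes, 4 were down-regulated in *bli*, 1 was up-regulated in *bli ire1a* against *bli* and 0 in *bli ire1b*.

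Members of other regulator families were few. The OVATE family, which was singled out after its values were seen, gave *OFP16*, *OFP18*, AT2G36026 and AT3G52550, with 0.502 to 1.11 of WT in *bli ire1a*. AT2G36026 shares 213 bases with AT2G36030 on the other strand, and without strand their reads cannot be told apart there. AT2G36030 averaged 52.8, 5.17, 17.2 and 28.7 FPKM in *bli ire1a*, *bli ire1b*, *bli* and WT. Without WT replicate 2, *OFP18* had 0.51 of WT in *bli* and was no member. Of the 14 other tested OVATE genes, 0 were called in *bli* against WT or in *bli ire1a* against *bli*. Over all 18 tested genes of that list, the median log2 difference was −0.66 in *bli* against WT and 0.75 in *bli ire1a* against *bli* (−0.01 and 0.01 over all genes). These medians include the members, which the rule chose on the same contrasts, so nothing is read from them for the other genes. *ERF38*, an ERF family factor, was down-regulated in *bli ire1a* against WT at 0.398 of its level (limma adjusted p = 0.0277). The MYB-type factor *CPL3*, which belongs to the inhibitors of trichome formation, had 3.71, 4.49 and 9.93 FPKM in *bli ire1a*, 1.2, 1.45 and 0.681 FPKM in *bli ire1b*, 1.81, 0.479 and 0.800 FPKM in *bli*, and 8.93, 9.12 and 6.90 FPKM in WT. Its *bli ire1a* libraries spread into the WT range. Of the tested genes outside the set, 15 of 99 MYB genes were down-regulated and 4 up-regulated in *bli*, 9 and 9 of 93 bHLH genes, 18 and 21 of 172 cytochrome P450 genes, and 12 and 14 of 250 receptor-like kinase genes. In *bli ire1a* against *bli*, 3 of these MYB genes were called higher and 4 called lower, 5 and 2 bHLH genes, 4 and 6 cytochrome P450 genes, and 2 and 1 receptor-like kinase genes. In *bli ire1b* against *bli*, 0 of these MYB genes were called higher and 9 called lower. For bHLH genes these counts were 1 and 4, for cytochrome P450 genes 1 and 11, and for receptor-like kinase genes 0 and 0. The calls in *bli* and in *bli ire1a* thus went in both directions, with the MYB calls in *bli* mostly downwards. Those in *bli ire1b* were mostly downwards, as they were among all tested genes.

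Transport and defence genes were members as well. The nitrate transporter *NRT1.5*, which loads nitrate into the xylem, had 58.7, 79.2 and 99.5 FPKM in *bli ire1a*, 21.9, 33.0 and 41.5 FPKM in *bli ire1b*, 35.4, 32.1 and 42.0 FPKM in *bli*, and 73.5, 125 and 111 FPKM in WT, with *bli ire1a* and WT overlapping. The sugar exporter *SWEET13* had 0.657, 1.68 and 1.16 FPKM in *bli ire1a*, 0, 0.164 and 0.351 FPKM in *bli ire1b*, 0.523, 0.370 and 0.634 FPKM in *bli*, and 4.44, 3.21 and 4.21 FPKM in WT, and was listed at 0 in a *bli ire1b* library. *THI2.2*, a thionin of the antimicrobial peptide family, had 24.4, 14.1 and 14 FPKM in *bli ire1a*, 4.75, 3.66 and 3.92 FPKM in *bli ire1b*, 3.89, 3.16 and 3.05 FPKM in *bli*, and 27, 11.7 and 25.3 FPKM in WT. *SWEET1* and the thionin AT1G66100 had 0.670 and 0.624 of WT in *bli ire1a*. Of the 39 other nitrogen and sugar transporters tested, 6 were down-regulated and 6 up-regulated in *bli*, and 1 was called higher and 3 called lower in *bli ire1a* against *bli*. Of the 27 other thionins and defensins, 1 was down-regulated and 6 up-regulated in *bli*, and 1 was called higher and 5 called lower in *bli ire1a* against *bli*.

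The nuclear photosystem and light-harvesting list shows the other extreme. By the limma call, none of its 61 tested genes outside the set passed in *bli* against WT, in *bli ire1a* against *bli* or in *bli ire1b* against *bli* (0 genes), yet the list as a whole had a median log2 difference of −0.67 in *bli* against WT and 0.32 in *bli ire1a* against *bli*, where all genes had medians of −0.01 and 0.01. *LHCB2.3* and AT1G51400 passed the bounds of the rule, and the median of their list had the same signs. Summed markers of mesophyll, the photosynthetic leaf tissue, were at 61200 to 66400 FPKM in *bli ire1a*, 52000 to 55700 FPKM in *bli ire1b*, 51400 to 56000 FPKM in *bli* and 74900 to 82000 FPKM in WT (5 genes).

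The lowest and highest members in *bli ire1a* relative to WT show the spread. AT2G27420, annotated as a cysteine proteinase, had 0.121 of WT in *bli ire1a* and 0.0661 in *bli*, and *NIG1*, a bHLH factor of salt signalling, had 0.154 and 0.0146. *IPS1*, known as a non-coding RNA of phosphate starvation, had 0.204 and 0.0787. It has an annotated protein in the RefSeq build used and is counted here among the protein-coding members. AT5G55570, an uncharacterized protein that was about as low as *IPS1* in *bli* (0.0772 of WT), had 0.437 of WT in *bli ire1a*. That level had a wide error, with a log2 fold change against WT of −1.15 ± 1.08 without WT replicate 2 (SE, limma adjusted p = 0.533). *NIG1* had 0.127, 0.781 and 0.0641 FPKM in *bli ire1a*, 0.0684, 0 and 0 FPKM in *bli ire1b*, 0.0449, 0.0476 and 0 FPKM in *bli*, and 4.04, 0.955 and 1.32 FPKM in WT. Most of the *bli ire1a* mean of *NIG1* came from a single library, and most of its WT mean came from WT replicate 1. Its ratios to WT thus rest largely on that WT library. At the other end, *RGF6*, a root meristem growth factor peptide, had 30.9, 23.1 and 21.5 FPKM in *bli ire1a*, 6.86, 8.81 and 5.27 FPKM in *bli ire1b*, 7.47, 5.02 and 9.83 FPKM in *bli*, and 18, 12.3 and 25 FPKM in WT. Its ratio of 1.37 to WT was not past the spread of the libraries (limma adjusted p = 0.303), and it was 1.17 without WT replicate 2. In addition, 673 of its bases overlap AT4G16510, which had means of 8.82, 9.91, 8.45 and 8.86 FPKM in *bli ire1a*, *bli ire1b*, *bli* and WT. In all, 10 members had a *bli ire1a* mean at or above the WT mean, among them *AGP40*, an arabinogalactan protein of the cell surface (1.14 of WT), AT1G06360, annotated as a fatty acid desaturase (1.10), and AT1G62030 (1.07).

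In *bli ire1b* the rule set an upper bound only. The mean was below that of *bli* for 91 genes, and the libraries of *bli ire1b* and *bli* overlapped for 149. For 23 genes every *bli ire1b* library was below every *bli* library, a pattern found in 14.8% of all tested genes. For 6 genes every *bli ire1b* library was above every *bli* library. The shares of all tested genes with overlap or with every library above are not given here, so nothing is read from those counts. Down-regulation in *bli ire1b* against *bli* was called for 4, AT1G13650, AT1G76610, *SWEET13* and AT2G40530, where 1.81% of all tested genes were called, and AT1G13650 alone also passed the adjusted p. The upper bound favours low *bli ire1b* values, so these are given as a description. Other markers moved as well: summed guard cell markers (4 genes) were at 36.3 to 40.5 FPKM in *bli ire1a*, 29.1 to 30.7 in *bli ire1b*, 23.6 to 26.7 in *bli* and 44.6 to 48.7 in WT. Summed trichome markers (3 genes) were at 6.44 to 8.35 FPKM in *bli ire1a*, 3.82 to 5.56 in *bli ire1b*, 3.28 to 4.38 in *bli* and 8.27 to 9.84 in WT. Root endodermis markers (6 genes) were at 41.0 to 75.4 FPKM in *bli ire1a*, 20.1 to 40.6 in *bli ire1b*, 47.2 to 81.9 in *bli* and 53.8 to 71.8 in WT, a different order. Root hair markers (7 genes) were at 47.8 to 82.1 FPKM in *bli ire1a*, 25.5 to 59.6 in *bli ire1b*, 45.3 to 68.2 in *bli* and 61.2 to 83.8 in WT. The phloem, root meristem and shoot meristem markers overlapped between *bli ire1a* and WT. By the calls, 2 of 4 guard cell and 2 of 3 trichome markers were lower in *bli* than in WT, and 1 of each was higher in *bli ire1a* than in *bli*. Of the root markers, 2 of 7 root hair markers were lower in *bli* than in WT, and 1 endodermis and 1 root meristem marker were higher. A root meristem marker (1 gene) was lower in *bli ire1a* than in *bli*, and an endodermis marker (1 gene) was higher in *bli ire1a* than in WT. By the same calls, 2 of 6 endodermis markers and 1 root meristem marker were lower in *bli ire1b* than in *bli*, and no marker of any list was higher. No marker was at 0 in all libraries or belonged to the set, and the part of tissue make-up in the members' levels was not tested.

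Features that the rule did not use were then described, without a test. A hydrophobic stretch near the start of the protein, as in signal peptides and membrane anchors, was scored as a mean Kyte-Doolittle hydropathy of at least 2 over any 10 residues between residues 2 and 35. It was found in 63 of 175 members (36.0%), in 20.2% of all expressed protein-coding genes and in 25.3% of the 186 protein-coding genes that were low in *bli* but at most 1.25 of *bli* in *bli ire1a*. At thresholds of 1.8 and 2.2 the shares were 39.4% and 33.1% of the members, 23.3% and 17.8% of expressed genes and 29.0% and 23.7% of the genes that stayed low. The members with it include the expansins *EXPA8*, *EXPA11*, *EXPB1*, *EXPB3* and *EXLB1*, *GASA6*, *RGF6* and the thionins. The score does not separate secreted proteins from membrane proteins or from some chloroplast proteins, as *LHCB2.3* also has it.

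The members were shorter than the average gene but close to the other genes that were low in *bli*. Their median protein length was 321 residues, against 380 for expressed genes and 301 for the genes that stayed low, and their median transcript length was 1434 bases, against 1673 and 1421 bases. A single exon was annotated for 24.6% of members, against 16.3% and 28.0%. Chromosomes 1 to 5 held 47, 34, 22, 34 and 41 members. They make up 0.867%, 1.09%, 0.544%, 1.09% and 0.859% of the expressed genes there. A few members lie next to each other, such as *OFP18* and AT3G52550, or AT5G66580 and AT5G66590. In all, 35 members overlap another annotated gene, 33 of them on the other strand, and 11 have a transcript in another gene that is at least 90% identical over at least 150 bases.

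**Figure D5:**
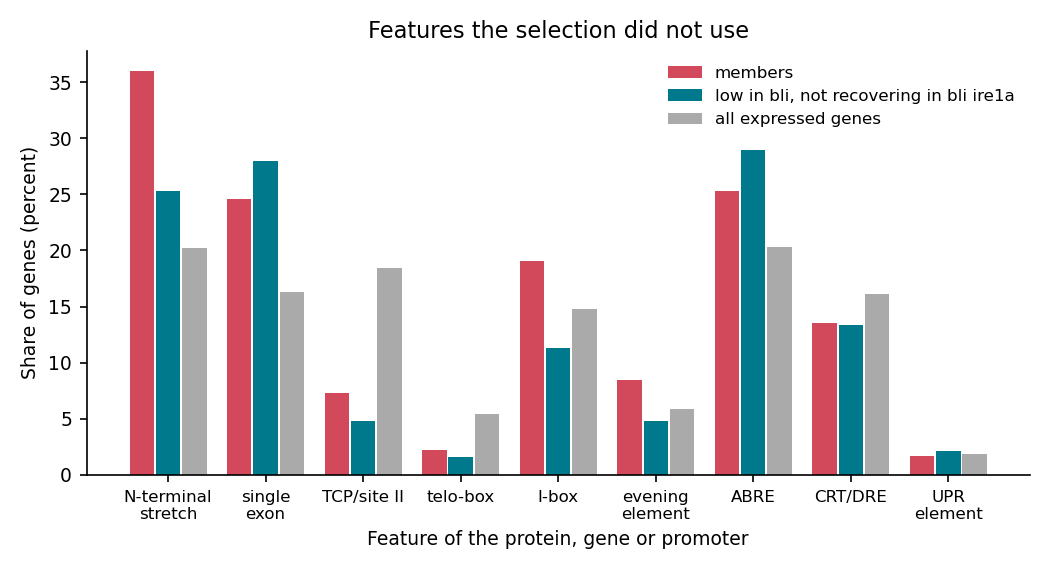
Share in percent of members, of expressed genes and of genes that were low in *bli* and stayed low in *bli ire1a*, for the N-terminal hydrophobic stretch, a single exon and promoter motifs. The stretch was found in 36.0% of members, 20.2% of expressed genes and 25.3% of genes that stayed low, and the TCP/site II letters in 7.30%, 18.4% and 4.84%.

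The bar chart of shares also shows promoter letters in windows from 250 bases before to 50 bases after the start, searched on both strands. TGGGCC, the site II letters of growth genes bound by TCP factors, was in 7.30% of members, 18.4% of expressed genes and 4.84% of the genes that stayed low, and the telo-box AAACCCTA in 2.25%, 5.45% and 1.61%. Both shares were thus lower in the members than in expressed genes. The I-box GATAAG of light-regulated genes was in 19.1%, 14.8% and 11.3%, and the evening element AAATATCT of clock-regulated genes in 8.43%, 5.90% and 4.84%. The UPR element TGACGTGG was in 1.69%, 1.87% and 2.15%, and the ER stress response element ERSE in 0%, 0.0244% and 1.08%. The auxin response letters TGTCTC and TGTCGG were in 18%, 18.6% and 19.4%. A match is no bound site, and no match says only that the letters are not in the window.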

How the data were processed

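RNA-Seq libraries of whole seedlings were made with an Illumina kit that does not mark strand, from 3 biological replicates of each of 4 genotypes according to the study's methods. The authors used SeqPrep and Sickle as read filters, TopHat as the aligner against TAIR10 and Cuffdiff for differential expression, and deposited FPKM per gene and library, according to the study's methods. The submitters' processing notes in GEO list Bowtie and a mouse build instead, and the gene identifiers of the table are those of Arabidopsis. The use of strand and the program behind single-library FPKM are not given in the sources used here. FPKM are relative to transcript length and library size, so no counting error could be given. All 12 columns of values were matched to samples by name (0 left unused).

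The members were selected on group means of FPKM as stated in the report. The members, gene lists and rules were chosen with earlier results of these data known, and the OVATE and arabinogalactan lists after their values were seen. log2(FPKM + 0.1) was taken for the 20645 genes whose FPKM averaged 0.5 or more over the libraries, and was fitted with limma 3.58.1 in R 4.3.3 (mean-variance trend, 4 genotypes in a single model, 8 residual degrees of freedom), which understates changes of low genes. Calls needed an unadjusted p of at most 0.05 and a 2-fold change up, or down to 0.5, and Benjamini-Hochberg adjusted p over all tested genes stand beside them. An exact permutation test of 3 against 3 libraries cannot go below p = 0.1 and was not used.

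Genes named were the 12 strongest in WT, the 6 with the lowest *bli* to WT ratio, the 6 highest and 6 lowest *bli ire1a* to WT ratios, up to 5 members per family list and the members nearest each bound. The other genes named were picked after their values were seen. Families came from annotated symbols and products. The lists not described in the report (lipid transfer, GASA, glycosyl hydrolase, aquaporin, UDP-glycosyltransferase, glucosinolate, WRKY, NAC, bZIP and homeobox genes) held 0 or 1 member each, and the arabinogalactan list held 2, *AGP40* and *AGP41*. Positions, promoters and proteins came from RefSeq, build TAIR10.1, in which 32810 of the gene identifiers and all 178 members were found, and similar transcripts from BLAST 2.17.0. Tables and figures were made with Python 3.11.15. The steps were tested on simulated data. The alternatives were other pseudocounts, filters, scalings, fits and leaving out each library in turn.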

Additional observations from a re-analysis of the deposited data

How the results depend on the processing

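The number of genes called in *bli ire1a* against WT fell with a pseudocount of 1, to 210 higher and 263 lower genes, against 370 and 451 with 0.1. The share of members with a G-box was 7.3% when only the bases before the start were searched, against 11.8%. Members that were down-regulated in *bli ire1a* numbered 22 to 38 when a library was left out (22 without WT replicate 1, 38 without WT replicate 2 or *bli ire1a* replicate 2), 24 with a pseudocount of 1 and 27 at adjusted p, against 31, and 0 were higher in any of these. The rule gave 192 genes with upper-quartile scaling (169 shared), 140 with quantile normalization (134 shared), 183 with medians (142 shared) and 261 without the condition on single libraries, and 78 members were found whichever library was left out. The 460 values of 22 named genes in *bli ire1a* against WT were compared by sign and by a limma adjusted p of at most 0.05, at any fold. Of these, 412 kept their direction and side of that threshold, 38 lost the pass, 4 gained it and 6 changed sign. The last were log2 fold changes near 0 that were never called: AT2G27385 had 0.02 with all libraries, −0.114 to 0.113 with single libraries left out, and −0.0273 and −0.0194 without *bli ire1a* replicates 2 and 3. *AGP40* (0.15 with all) had −0.0793 to 0.28, AT2G36026 (0.15) −0.0132 to 0.265, and AT1G62030 (0.08) −0.0358 to 0.243. *NIG1* (limma adjusted p 0.0592 without WT replicate 2 and 0.151 with a pseudocount of 0.01) and *SWEET13* (0.0665 and 0.265) were among those that lost the pass at adjusted p. The cause was not tested.

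With the replicate number as a block, *bli ire1a* differed from WT upwards in 378 and downwards in 457 genes, and 31 members were down-regulated. Deviations of same-numbered libraries had correlations of −0.108 to 0.0881. Whether same-numbered libraries shared a batch was not tested.

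Depth limits the weak members, of which 9 were listed at 0 in at least 1 library.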
